A study of Mus musculus with 16 samples.

Results

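A set of 10 genes of coenzyme A metabolism, out of the 53465 genes counted, was followed in mouse liver by their gene symbols. They were the pantetheinase Vnn1, the pantothenate kinase family Pank1, Pank2, Pank3 and Pank4, the synthesis enzymes Ppcs, Ppcdc and Coasy, and the hydrolases Nudt7 and Nudt19. Every one of the 10 was among the 14998 genes that passed the filter on low counts. The livers came from 16 C57BL/6 mice aged 29 to 30 weeks, each sequenced as 1 RNA library. The mice ate a control diet (CD) or a high-fat diet (HFD) for 16 weeks and then received vehicle or perfluorooctanoic acid (PFOA), a persistent fluorinated surfactant, for 8 weeks. This gave 4 groups of 4 mice, called CD_vehicle, CD_PFOA, HFD_vehicle and HFD_PFOA. The sources used here do not give the dose, the vehicle or the sex of the mice, and the labels name no genetic change.

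Coenzyme A is the carrier to which cells attach acetyl and fatty acyl groups, and liver uses it in fatty acid oxidation, ketone production and lipid synthesis. Cells build it from pantothenate (vitamin B5): pantothenate kinases add a phosphate and set the pace of the pathway, PPCS and PPCDC add and trim a cysteine, and the bifunctional COASY finishes the molecule. Breakdown runs the other way, as NUDT7 in peroxisomes and NUDT19 (peroxisomal in mouse kidney) hydrolyse coenzyme A, and the ectoenzyme vanin-1, the product of Vnn1, splits pantetheine into pantothenate and cysteamine.

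The libraries held 14456524 to 25778125 counts, and the tested genes took 99.9% of them. HFD_vehicle 2 and HFD_vehicle 3 had the lowest totals, 17890548 and 14456524. The hepatocyte markers fixed for the check (Alb, Ttr, Apoa1, Cps1, Serpina1a, Hnf4a, Tat and Ass1) were abundant in every library, with a summed level of 46527 to 128248 CPM (counts scaled to a common library total). In bulk liver RNA, fewer cells of a type and less RNA per cell cannot be told apart. In CD_vehicle, libraries 1 and 4 stood apart. CD_vehicle 1 differed most from the rest of its group in counts (chi-square per degree of freedom 136 to 154, against 16.7 to 59.5 among the other 3) and had summed hepatocyte markers of 88189 CPM, against 123057 to 128248 CPM. In CD_vehicle 4 the summed B cell markers reached 366 CPM, against 12.6 to 51.7 CPM in the other 15 libraries.

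PFOA raised the same 3 genes on both diets. Vnn1, Pank1 and Ppcs were higher in CD_PFOA than in CD_vehicle and in HFD_PFOA than in HFD_vehicle, by 1.53-fold to 3.18-fold. Nudt7, the peroxisomal hydrolase, fell with PFOA on the control diet and rose with PFOA on the high-fat diet. On the control diet, 3 of the 10 genes rose and 1 fell at an edgeR adjusted p under 0.05, whereas 24.4% of all genes tested passed in either direction (11.8% higher, 12.6% lower). On the high-fat diet, 4 rose, where 16.5% of all genes passed in either direction (8.6% higher, 7.91% lower). No other member had an unadjusted p under 0.05 there. The median log2 fold change over the 10 genes was 0.14 on CD and 0.15 on HFD, beside 0.00 and 0.01 over all genes tested.

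**Figure D1:**
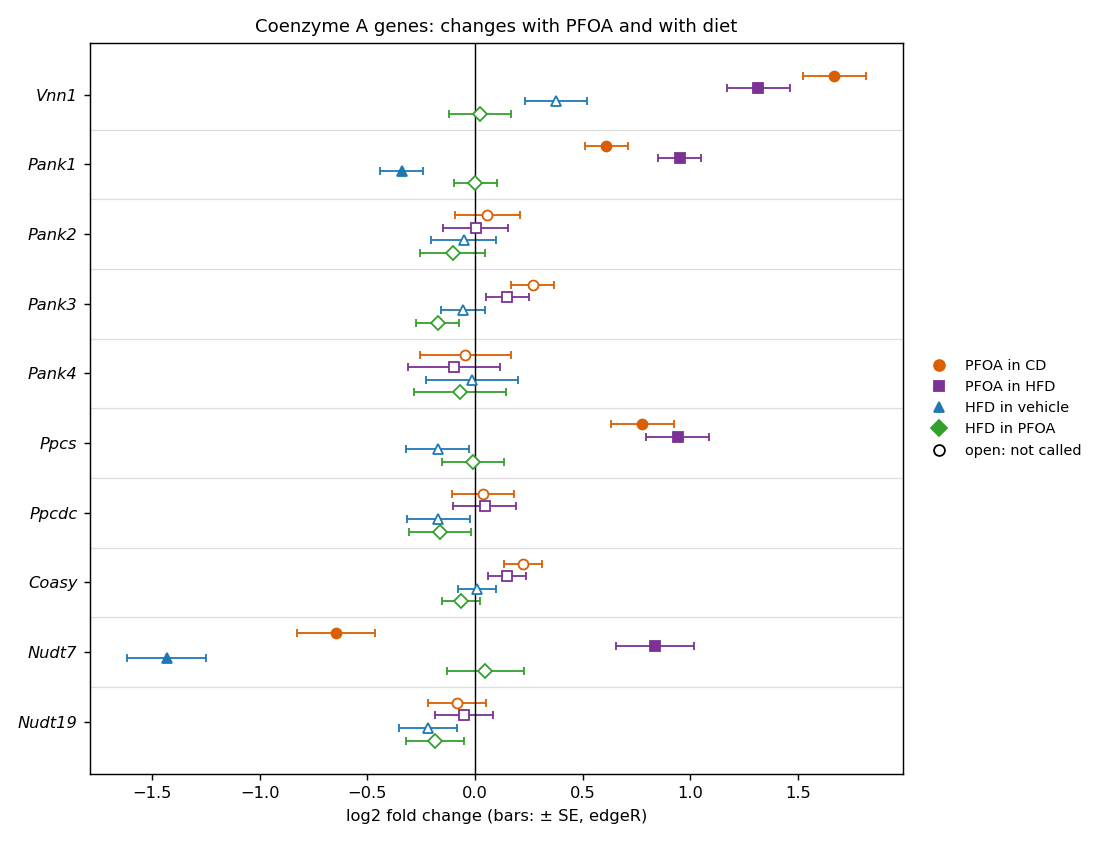
Log2 fold change with its SE for each of the 10 genes in 4 comparisons, from the edgeR fit over all genes, with filled points where the adjusted p is under 0.05. Vnn1, Pank1 and Ppcs lie to the right in both PFOA comparisons, Nudt7 lies on opposite sides in them, and no point is filled for diet under PFOA.

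Vnn1 was the most strongly raised gene of the 10. Its level was 146, 79.4, 120 and 125 CPM in the CD_vehicle mice, and 425, 307, 356 and 410 CPM in the CD_PFOA mice. The HFD_vehicle mice had 170, 158, 137 and 146 CPM and the HFD_PFOA mice 426, 350, 371 and 374 CPM. Every PFOA library lay above every vehicle library, with no overlap on either diet. The log2 fold change was 1.67 ± 0.15 (SE) on CD, 3.18-fold, with an edgeR adjusted p of 7.35e-08. On HFD it was 1.32 ± 0.15, 2.49-fold, with an edgeR adjusted p of 2.2e-06. The difference between these responses, −0.35 ± 0.20, did not pass the interaction test (edgeR adjusted p = 0.562, 95% interval −0.78 to 0.07). Vnn1 lies on chromosome 10 (chr10:23894688-23905343, plus strand, GRCm38). Its neighbour Vnn3, a related vanin at chr10:23851462-23869843, was 86.5 ± 12.2 CPM (SD, n = 4) in CD_vehicle and 98.5 ± 11.6 CPM in CD_PFOA, which did not pass (log2 fold change 0.19 ± 0.11, edgeR adjusted p = 0.238). On HFD, Vnn3 rose from 67.5 ± 5.09 to 96.4 ± 7.79 CPM, 1.43-fold (edgeR adjusted p = 0.00242). The difference between the Vnn3 responses on the 2 diets did not pass the interaction test.

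**Figure D2:**
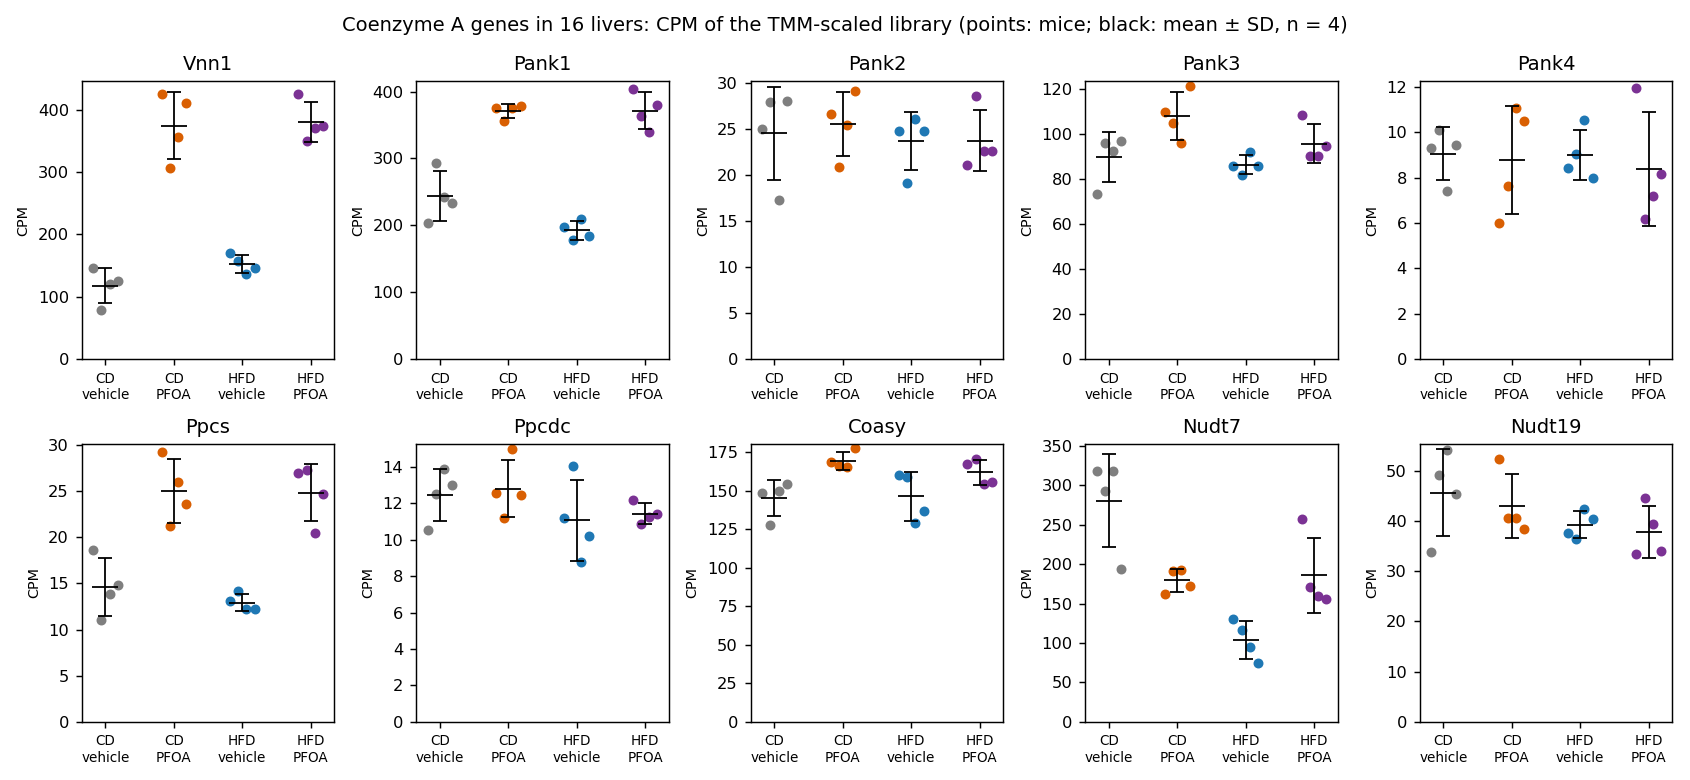
CPM of each of the 10 genes in every mouse (points) with the group mean and SD over 4 mice, 1 panel per gene with its own linear axis. The PFOA mice of both diets sit above all vehicle mice for Vnn1, Pank1 and Ppcs, and the HFD_vehicle mice sit lowest for Nudt7.

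Among the kinases only Pank1 passed the test for PFOA, although on the control diet Pank3 did so under other settings given below. Pank1 encodes the kinase isoforms that dominate in liver. It was counted at 204, 293, 242 and 233.8 CPM in CD_vehicle and at 375, 356, 375 and 379 CPM in CD_PFOA. In HFD_vehicle it was at 197, 178, 210 and 184 CPM, and in HFD_PFOA at 404, 363, 339 and 380 CPM. The lowest PFOA library stood above the highest vehicle library on both diets. The rise was 1.53-fold on CD (log2 0.61 ± 0.10, edgeR adjusted p = 0.000133) and 1.93-fold on HFD (log2 0.95 ± 0.10, edgeR adjusted p = 1.09e-06). The 2 rises differed by 0.34 ± 0.14 on the log2 scale, which did not pass (edgeR adjusted p = 0.349, 95% interval 0.05 to 0.64).

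Pank3, a kinase strongly inhibited by acetyl-CoA, was 89.7 ± 11.2 CPM in CD_vehicle and 108 ± 10.5 CPM in CD_PFOA, and 86.3 ± 4.25 and 95.8 ± 8.71 CPM in the HFD groups. Its log2 difference with PFOA was 0.27 ± 0.10 on CD (edgeR adjusted p = 0.0589, 95% interval 0.06 to 0.48) and 0.15 ± 0.10 on HFD (edgeR adjusted p = 0.36). DESeq2 called the CD difference (adjusted p = 0.0411), as did scaling by library totals (edgeR adjusted p = 0.0108). So did 3 of the 16 fits with 1 library left out (edgeR adjusted p 0.0389 to 0.0497). Pank2 stayed between group means of 23.7 and 25.6 CPM, with PFOA differences of 0.06 (95% interval −0.26 to 0.37) on CD and 0.00 (−0.31 to 0.32) on HFD. Pank4, a family member thought to act as a phosphatase and not as a kinase, had group means of 8.37 to 9.05 CPM and PFOA differences of −0.04 (95% interval −0.49 to 0.40) and −0.10 (−0.55 to 0.35). Of Pank2's exon bases, 22.9% are shared with Rnf24 on the opposite strand and 7.31% with Gm14233. The libraries carry no strand, so reads from these bases cannot be told apart.

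**Figure D3:**
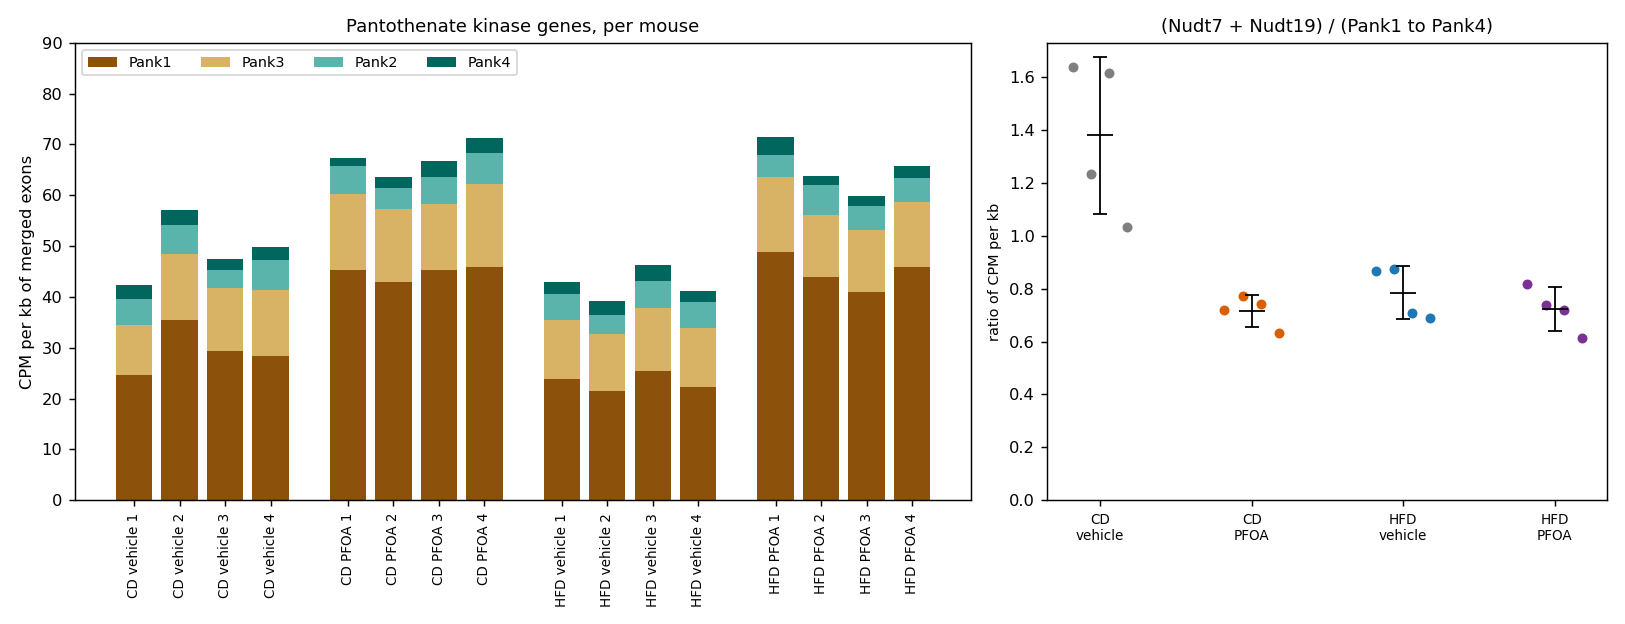
Left, summed CPM per kilobase of merged exons of Pank1 to Pank4 in every mouse, stacked by gene. Right, the ratio of Nudt7 plus Nudt19 to the Pank total on the same length-corrected scale, with group means; Pank1 takes the largest part of each bar and CD_vehicle has the highest mean ratio, 1.38.

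Per kilobase of exon, a scale on which levels of different genes can be set side by side, Pank1 was the most abundant kinase in each group mean. It made up 59.7 ± 2.66% of the summed Pank level in CD_vehicle and 66.8 ± 1.64% in CD_PFOA (SD, n = 4). On the high-fat diet its share was 54.9 ± 0.641% with vehicle and 69.0 ± 0.675% with PFOA. Pank3 made up 24.8% and 21.8% on CD, and 27.7% and 19.9% on HFD, with vehicle and PFOA. The summed Pank level was 49.2 ± 6.14 and 67.2 ± 3.10 CPM per kb in the CD groups, and 42.4 ± 3.0 and 65.2 ± 4.77 CPM per kb in the HFD groups. These shares describe the libraries and were not tested.

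Pank1, Pank2 and Pank3 carry microRNAs inside their introns, on their own strand, which is why these are shown. Pank1 (chr19:34806940-34879455, minus strand) holds mmu-miR-107-3p at chr19:34820700-34820722. Pank2 (chr2:131262495-131299188, plus strand) and Pank3 (chr11:35769484-35791285, plus strand) each hold a copy of mmu-miR-103-3p, at chr2:131288103-131288125 and chr11:35782447-35782469. Sequences are from RefSeq (GRCm38.p6), with the seed, bases 2 to 8, in capitals.
mmu-miR-107-3p: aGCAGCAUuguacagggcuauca
mmu-miR-103-3p: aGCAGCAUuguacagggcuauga
The seeds are the same, and the microRNAs differ by 1 substitution, G22C (the base of mmu-miR-103-3p first, counted from 1 at the 5′ end). The libraries counted reads on the exons of the host genes, so the rise of Pank1 with PFOA is a rise of host RNA, and the mature microRNAs were not measured.

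Of the enzymes that follow the kinases, Ppcs rose and Ppcdc did not pass. Ppcs, phosphopantothenoylcysteine synthetase, was at 18.6, 11.0, 13.9 and 14.9 CPM in CD_vehicle and at 29.2, 21.2, 26.01 and 23.6 CPM in CD_PFOA. It was at 13.1, 14.2, 12.3 and 12.2 CPM in HFD_vehicle and at 26.99, 27.3, 20.5 and 24.7 CPM in HFD_PFOA. The PFOA and vehicle mice did not overlap on either diet. The log2 fold change was 0.78 ± 0.15 on CD (1.71-fold, edgeR adjusted p = 0.000508) and 0.94 ± 0.15 on HFD (1.92-fold, edgeR adjusted p = 0.000111). Ppcdc, the decarboxylase of the next step, had group means of 11.1 to 12.8 CPM, and its PFOA differences were 0.04 (95% interval −0.26 to 0.34) on CD and 0.04 (−0.26 to 0.35) on HFD. Per kilobase of exon, the Ppcs level was 4.33 ± 1.43 times that of Ppcdc in CD_vehicle and 7.10 ± 0.909 times in CD_PFOA, and 4.31 ± 0.564 and 7.88 ± 1.02 times in the HFD groups. These ratios depend on the gene length used: with the longest transcript in place of merged exons they were 2.17 and 3.56 on CD, and 2.16 and 3.95 on HFD.

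Coasy, which joins the last pieces of coenzyme A, was at 148, 128, 150 and 154 CPM in CD_vehicle and at 169, 166, 165 and 178 CPM in CD_PFOA. These groups did not overlap, but the difference of 0.22 ± 0.09 on the log2 scale did not pass (edgeR adjusted p = 0.0729, 95% interval 0.04 to 0.41). It passed with DESeq2 (adjusted p = 0.0314) and with library-total scaling (edgeR adjusted p = 0.0242). On HFD, Coasy was 146 ± 15.8 and 162 ± 8.20 CPM, a difference of 0.15 ± 0.09 (edgeR adjusted p = 0.3). Counting Coasy, 5 of the 10 genes did not overlap between vehicle and PFOA on CD and 4 on HFD, beside 22.7% and 25.3% of all genes tested.

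Because Pank1 and Ppcs both rose with PFOA while Ppcdc did not pass, their promoter windows are printed. Each is 300 bases, from 250 before to 50 after a transcription start, from RefSeq (GRCm38.p6), 5′ to 3′ on the gene's strand. RefSeq windows matched 8 of the 10 genes, 12 windows in all. None matched Coasy or Vnn1, the most strongly raised gene, so neither was searched. Pank1 has 2 of them, and the one at its upstream start is printed; the other, at chr19:34877868-34878167, is not. Capitals mark AGGTCA, the core motif of many nuclear receptor elements, searched on both strands, and the direct repeat of this motif with a single base between the copies, with at most 2 mismatches, which overlaps the core motif.
Pank1, chr19:34879406-34879705, minus strand: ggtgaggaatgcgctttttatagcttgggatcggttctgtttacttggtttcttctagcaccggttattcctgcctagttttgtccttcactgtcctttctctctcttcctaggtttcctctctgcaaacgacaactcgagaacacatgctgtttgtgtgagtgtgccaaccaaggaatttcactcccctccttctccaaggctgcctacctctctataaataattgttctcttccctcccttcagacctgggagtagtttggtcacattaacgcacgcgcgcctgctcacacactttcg
Ppcs, chr4:119422371-119422670, minus strand: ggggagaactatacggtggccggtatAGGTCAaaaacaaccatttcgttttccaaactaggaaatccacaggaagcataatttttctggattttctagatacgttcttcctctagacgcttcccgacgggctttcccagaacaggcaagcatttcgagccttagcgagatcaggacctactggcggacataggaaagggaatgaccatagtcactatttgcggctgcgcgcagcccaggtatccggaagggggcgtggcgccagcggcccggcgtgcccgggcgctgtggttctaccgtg
Ppcdc, chr9:57439687-57439986, minus strand: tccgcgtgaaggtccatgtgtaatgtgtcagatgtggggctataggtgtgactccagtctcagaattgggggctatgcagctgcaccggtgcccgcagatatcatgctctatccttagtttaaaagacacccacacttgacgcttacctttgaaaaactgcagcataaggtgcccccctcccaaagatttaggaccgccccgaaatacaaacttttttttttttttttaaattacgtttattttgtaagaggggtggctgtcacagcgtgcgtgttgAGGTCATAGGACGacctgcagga
The Ppcs window holds the core motif once, before the start, and the Ppcdc window holds it 27 bases after the start, inside the repeat match AGGTCATAGGACG. Neither printed motif was found in the windows of Pank1, Pank2, Pank3, Pank4, Nudt7 or Nudt19. Among all 32851 windows in the table, 16.3% hold the core motif and 3.86% the repeat, and a match in letters is a description and not a binding site.

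Nudt7, which cleaves coenzyme A and its acyl forms in peroxisomes, was the single gene of the 10 to pass the interaction test. Its level was 318, 293, 318 and 194 CPM in CD_vehicle and 162, 191, 193 and 173 CPM in CD_PFOA. It was 130, 116, 94.9 and 74.8 CPM in HFD_vehicle and 257, 171, 159 and 156 CPM in HFD_PFOA. The highest group was thus CD_vehicle and the lowest HFD_vehicle, and the PFOA groups lay between them and overlapped each other. CD_vehicle 4, at 194 CPM, was the lowest CD_vehicle library and stood just above the highest CD_PFOA library. PFOA lowered Nudt7 1.56-fold on CD (log2 −0.65 ± 0.18, edgeR adjusted p = 0.0128) and raised it 1.78-fold on HFD (log2 0.84 ± 0.18, edgeR adjusted p = 0.00282).

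The difference between these responses passed the interaction test, with a log2 value of 1.48 ± 0.26 (95% interval 0.94 to 2.02, edgeR adjusted p = 0.0192). It was the single member of 10 to pass, and 0.207% of all genes tested passed (0.0667% with a positive and 0.14% with a negative value). All 3 calls held when any 1 library was left out, some of them narrowly. The largest edgeR adjusted p was 0.0427 for the CD response, 0.0141 for the HFD response and 0.049 for the interaction. The CD response then ran from −0.79 to −0.58, the HFD response from 0.64 to 0.96 and the interaction from 1.28 to 1.62. The HFD response was 0.64 without HFD_PFOA 1, the library with 257 CPM, and the CD response was −0.79 without CD_vehicle 4. Nudt7 lies at chr8:114133557-114154739 on the plus strand.

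Nudt19, the other coenzyme A hydrolase, was at 45.6 ± 8.68 CPM in CD_vehicle and 43.0 ± 6.37 CPM in CD_PFOA, and at 39.2 ± 2.70 and 37.8 ± 5.24 CPM in the corresponding HFD groups. Its PFOA differences on the log2 scale were −0.08 (95% interval −0.37 to 0.20) on CD and −0.05 (−0.33 to 0.23) on HFD, and neither passed. Of its exon bases, 35.0% are shared with B230322F03Rik on the opposite strand. Per kilobase of exon, Nudt7 made up 74.1 ± 5.98% of the summed level of both hydrolases in CD_vehicle and 66.6 ± 4.68% in CD_PFOA. With the high-fat diet that share was 55.3 ± 7.25% under vehicle and 69.4 ± 6.35% under PFOA. The ratio of that sum to the Pank total was 1.38 ± 0.297 in CD_vehicle, and 0.716 ± 0.0600, 0.785 ± 0.100 and 0.722 ± 0.0831 in CD_PFOA, HFD_vehicle and HFD_PFOA. Its lowest CD_vehicle value, 1.03, lay above the highest value of the other groups, 0.877. With the longest transcript as the length, the ratios were 1.86, 0.941, 1.002 and 0.956 in the same order.

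The high-fat diet without PFOA lowered 2 of the 10 genes, Nudt7 and Pank1, and raised none at an adjusted p under 0.05 with edgeR or DESeq2. Over all genes tested, 10.4% passed in this comparison (5.19% higher, 5.21% lower). Nudt7 was 2.70-fold lower in HFD_vehicle than in CD_vehicle (log2 −1.43 ± 0.18, edgeR adjusted p = 0.000126), and these groups did not overlap, as was the case for 14.5% of all genes tested. Pank1 was 1.27-fold lower (log2 −0.34 ± 0.10, edgeR adjusted p = 0.0353), with overlapping groups. The Pank1 call was lost when CD_vehicle 2, CD_vehicle 3, HFD_vehicle 1, HFD_vehicle 2 or HFD_vehicle 4 was left out, with edgeR adjusted p up to 0.136. Scaling by library totals took it to −0.12 (edgeR adjusted p = 0.402).

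Vnn1 had an unadjusted p of 0.0175 for the diet (log2 0.38 ± 0.14, edgeR adjusted p = 0.108). It passed without CD_vehicle 1 (log2 0.50, edgeR adjusted p = 0.0274), without the low-count filter (log2 0.38, edgeR adjusted p = 0.0398) and with library-total scaling (log2 0.59, edgeR adjusted p = 0.0136). The remaining 7 genes had diet differences under vehicle of −0.22 to 0.01 on the log2 scale. The diet and PFOA comparisons share their vehicle groups, so a low Nudt7 value in HFD_vehicle enters both.

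Under PFOA, the diet groups gave no call among the 10 genes with edgeR or with DESeq2, and no unadjusted edgeR p was under 0.05. Of all genes tested, 0.06% passed (0.0467% higher, 0.0133% lower). All 10 genes overlapped between the diets under PFOA, where 7.68% of all genes tested did not. The edgeR log2 differences ran from −0.19 (Nudt19, 95% interval −0.47 to 0.10) to 0.05 (Nudt7, −0.33 to 0.43). For Vnn1 the difference was 0.02 (−0.28 to 0.32) and for Pank1 0.00 (−0.21 to 0.21).

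Some markers of cell types also differed between these groups, while no tested neutrophil, T cell or NK cell marker was called in any comparison. All 8 hepatocyte markers were lower with PFOA on each diet and 6 of 8 were lower in HFD_vehicle than in CD_vehicle. On the control diet their summed level was 88189 to 128248 CPM with vehicle and 51981 to 69323 CPM with PFOA. On the high-fat diet it was 72610 to 85875 CPM with vehicle and 46527 to 56631 CPM with PFOA. Summed macrophage markers were 199 to 372 CPM in CD_vehicle and 350 to 435 CPM in HFD_vehicle, with 3 of 9 called higher. In CD_PFOA and HFD_PFOA they were 151 to 338 and 240 to 461 CPM, and 0 of 9 were called with PFOA on either diet. Stellate cell markers were 217 to 405 CPM in CD_vehicle and 479 to 547 CPM in HFD_vehicle, with 3 of 6 called higher. With PFOA on HFD the stellate sum was 338 to 441 CPM, with 1 of 6 markers, Dcn, called lower, and on CD it was 307 to 415 CPM, with Col1a1 called higher. The cholangiocyte sum, which is mostly Spp1, was 45.9 to 96.7 CPM in CD_vehicle, 124 to 249 CPM in HFD_vehicle and 55.3 to 78.8 CPM in HFD_PFOA. In CD_PFOA this sum was 32.3 to 55.6 CPM. Spp1 was the 1 of 5 cholangiocyte markers called, higher with the diet and lower with PFOA on HFD, and Krt19, a more specific marker of these cells, had means of 1.75 ± 1.75 CPM in CD_vehicle and 1.18 ± 0.382 CPM in HFD_vehicle. Of 6 sinusoidal endothelium markers, 3 were called higher and 1 lower with PFOA on CD, 1 higher with PFOA on HFD, and 2 higher and 1 lower with the diet under vehicle. Of 6 B cell markers, 1 was called lower with PFOA on CD and 1 lower with the diet under vehicle. Both comparisons are against CD_vehicle, which holds the library with the high B cell sum. Of 3 erythroid markers, 1 was called lower with PFOA on CD and 1 higher with the diet under PFOA. Over all genes tested, 24.4% were called with PFOA on CD, 16.5% with PFOA on HFD, 10.4% with the diet under vehicle and 0.06% with the diet under PFOA. With PFOA, 1 call among 5 or 6 markers is near those shares. The part of these cell types in the levels of Nudt7, Pank1 and Vnn1 was not tested. The lower Nudt7 level in HFD_vehicle remained called in every leave-one-out fit (log2 −1.57 to −1.30). CD_vehicle 4, the library with the high B cell markers, had the lowest Nudt7 level of its group, 194 CPM. Leaving it out could therefore only widen that difference, and the part of B cells was not tested.

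A further 8 genes of coenzyme A supply and transport were listed: Vnn3, Slc5a6, Nudt8, Slc25a42, Slc25a16, Slc25a17, Dcakd and Aasdhppt. With PFOA on CD, 3 of the 8 rose and 3 fell, and on HFD 3 rose and 1 fell. Over all genes tested, 11.8% rose and 12.6% fell on CD, and 8.6% rose and 7.91% fell on HFD. Slc25a42, the mitochondrial importer of coenzyme A, rose from 74.3 ± 6.21 to 156 ± 14.6 CPM on CD (log2 1.07 ± 0.10, edgeR adjusted p = 9.46e-08) and from 85.2 ± 7.66 to 181 ± 15.2 CPM on HFD (log2 1.09 ± 0.10, edgeR adjusted p = 1.02e-07). Dcakd, named for its dephospho-coenzyme A kinase domain, rose 1.81-fold on CD and 1.76-fold on HFD (edgeR adjusted p = 1.11e-05 and 3.05e-05).

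The plasma membrane vitamin carrier Slc5a6, which takes up pantothenate and biotin, rose on CD from 4.30 ± 2.21 to 8.78 ± 0.462 CPM (log2 1.03 ± 0.27, edgeR adjusted p = 0.00861). On HFD it was 6.75 ± 0.817 and 6.74 ± 0.587 CPM, and the difference between the diets' responses did not pass (log2 −1.03 ± 0.38, edgeR adjusted p = 0.287). Slc25a16, a mitochondrial carrier linked to coenzyme A, fell on both diets, by 0.31 ± 0.08 and 0.46 ± 0.08 on the log2 scale (edgeR adjusted p = 0.00795 and 0.000424). The fall on CD did not pass with library-total scaling (edgeR adjusted p = 0.0568) or without the low-count filter (0.0502). Slc25a17, the peroxisomal carrier of coenzyme A and other nucleotides, fell on CD by 0.31 ± 0.11 (edgeR adjusted p = 0.0486), a call that 15 of 22 other settings did not keep. Aasdhppt, which transfers phosphopantetheine from coenzyme A to carrier proteins, fell on CD by 0.42 ± 0.11 (edgeR adjusted p = 0.00964). On HFD neither was called: with vehicle and PFOA, Slc25a17 was 42.5 ± 4.62 and 39.6 ± 5.16 CPM, and Aasdhppt 28.7 ± 1.12 and 26.3 ± 4.82 CPM. None of the 8 genes passed the interaction test, so no fall is shown to be limited to CD. Nudt8, a mitochondrial coenzyme A hydrolase, had group means of 0.557 to 0.789 CPM and no call, and all of its exon bases are shared with Gm49405. For the diet under vehicle, 1 of the 8 genes fell, Vnn3 (log2 −0.36 ± 0.11, edgeR adjusted p = 0.0442), a call that 15 of 22 other settings did not keep. In that comparison 5.21% of all genes tested were lower.

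**Figure D4:**
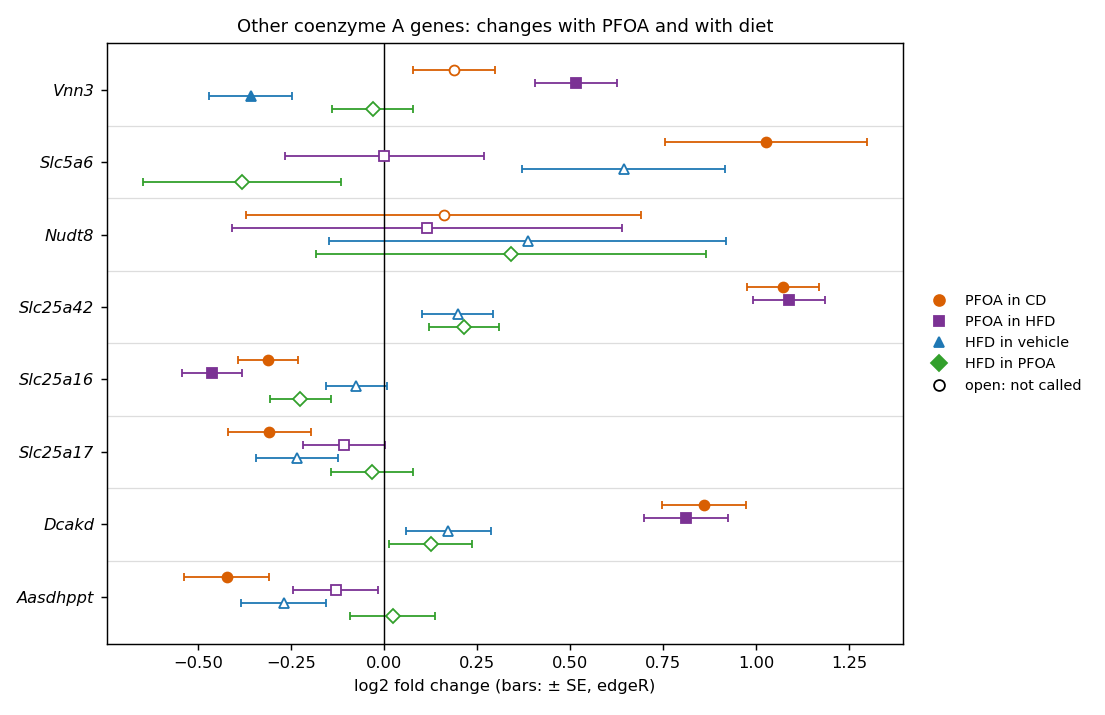
Log2 fold change with its SE for 8 further coenzyme A genes in 4 comparisons, from the same edgeR fit, with filled points where the adjusted p is under 0.05. Slc25a42 and Dcakd lie to the right in both PFOA comparisons and Slc25a16 to the left.

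Genes that use coenzyme A or its parts were listed by role. Of 5 genes of phosphopantetheine-carrying proteins, 1 rose and 3 fell with PFOA on CD, and 1 rose and 1 fell on HFD. Among all genes tested, 11.8% rose and 12.6% fell on CD, and 8.6% rose and 7.91% fell on HFD. Ndufab1, the mitochondrial acyl carrier protein, went from 13.8 ± 2.26 to 33.7 ± 5.59 CPM on CD and from 13.9 ± 1.58 to 35.9 ± 2.58 CPM on HFD (edgeR adjusted p = 6.89e-07 and 4.6e-07). Aldh1l1, a folate enzyme, fell from 848 to 364 CPM on CD and from 510 to 308 CPM on HFD (edgeR adjusted p = 4.31e-07 and 0.00025). Its mitochondrial relative Aldh1l2 fell on CD from 1.45 ± 0.618 to 0.261 ± 0.163 CPM (edgeR adjusted p = 0.0079), a call lost without CD_vehicle 1 and 4 (edgeR adjusted p = 0.0706).

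Cysteamine, the other product of vanin-1, can be oxidised towards taurine. Of 6 tested genes of cysteamine and taurine metabolism, 2 rose and 3 fell with PFOA on CD, and 1 rose and 3 fell on HFD. The shares over all genes tested were 11.8% higher and 12.6% lower on CD, and 8.6% and 7.91% on HFD. Csad, which makes hypotaurine from cysteine sulfinate, went from 47.9 ± 22.9 to 432 ± 46.6 CPM on CD (log2 3.17 ± 0.22, edgeR adjusted p = 3.34e-09) and from 121 ± 16.8 to 347 ± 45.8 CPM on HFD (log2 1.51 ± 0.21, edgeR adjusted p = 3.13e-05). The smaller rise on HFD passed the interaction test (log2 −1.66 ± 0.29, edgeR adjusted p = 0.0192), but leaving out any of 5 libraries took that adjusted p to 0.0512 to 0.0621. They were CD_vehicle 3, CD_PFOA 2, HFD_vehicle 4, HFD_PFOA 3 and HFD_PFOA 4. Cdo1, which supplies cysteine sulfinate, fell from 1933 to 643 CPM on CD and from 1362 to 482 CPM on HFD (edgeR adjusted p = 7.18e-08 and 2.13e-07). Baat, which joins bile acids to taurine or glycine, fell by 0.83 ± 0.10 and 0.64 ± 0.10 on the log2 scale (edgeR adjusted p = 2.61e-06 and 7.44e-05).

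Acyl-CoA synthetases, which attach coenzyme A to fatty acids, had 5 of 13 genes higher and 1 lower with PFOA on CD, and 8 of 13 higher on HFD. For each list here, the shares over all genes tested were 11.8% higher and 12.6% lower on CD, and 8.6% and 7.91% on HFD. The lists were chosen with earlier results of these data known. Acsl1 rose from 1081 to 3459 CPM on CD and from 818 to 3323 CPM on HFD (edgeR adjusted p = 2.66e-08 and 2.84e-09). Slc27a2 rose by 1.13 ± 0.09 and 1.12 ± 0.09 on the log2 scale (edgeR adjusted p = 3.15e-08 and 4.28e-08). Acss3 rose 1.6-fold on CD (edgeR adjusted p = 0.000553) and Acsl3 rose 1.67-fold on HFD (edgeR adjusted p = 0.00023). Of 12 tested thioesterases, which release coenzyme A again, 8 rose and 1 fell on each diet. The 3 with the smallest p, Acot1, Acot2 and Acot4, rose 28.4-fold, 36.4-fold and 5.46-fold on CD. These 3 are close relatives, so reads may be split between them. All 8 genes of a PPARA index, genes known to respond to this fatty acid receptor, rose on each diet, with Ehhadh at 24.7-fold, Cyp4a14 at 17.8-fold and Cyp4a10 at 16.0-fold on CD.

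The genes whose log2 CPM ran most like a member's across the 16 libraries were ranked by Pearson's r, as a description. The libraries share their 4 group means, so r within groups, after those means were removed, is given beside it. The genes were picked for the highest r over these same libraries, so their r within groups is no separate check. For Vnn1 they were Chrna2 (r = 0.989, within groups 0.892), Hsd17b4 (0.987, 0.798) and Mogat1 (0.986, 0.763). For Pank1 they were Cmbl (0.973, 0.644), Acot3 (0.971, 0.691) and Acsl1 (0.971, 0.709). For Nudt7 they were Upb1 (0.900, 0.775), Adh6-ps1 (0.899, 0.826) and Psmb6 (0.894, 0.698), and for Nudt19 Bmp6 (0.852, 0.824), Kat2b (0.800, 0.892) and D330023K18Rik (0.758, 0.717). Between members, Vnn1 and Ppcs had r = 0.925 over the 16 libraries and 0.784 within groups. For Pank1 and Ppcs these values were 0.824 and −0.461. Vnn1 and Pank1 had 0.788 over the 16 libraries and −0.544 within groups. The groups did not share a direction, since the mouse with the lowest Vnn1 level had the lowest Pank1 level in CD_PFOA and the highest in CD_vehicle.

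The other genes lie at chr4:154964123-154980938 (Pank4, plus strand), chr4:119418530-119422420 (Ppcs, minus strand), chr9:57385095-57440124 (Ppcdc, minus strand), chr11:101082565-101086619 (Coasy, plus strand) and chr7:35547185-35556304 (Nudt19, minus strand), all in GRCm38.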

How the data were processed

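The authors deposited 1 table of raw read counts for 53465 genes in 16 liver libraries, made from non-stranded BGI libraries, per the labels' protocols. Per the submitters' processing notes, STAR 2.5.2b, featureCounts (Subread 1.6.0), Trimmomatic 0.33 and bcl2fastq 2.20.0.422 were used with GRCm38 (mm10). The sources used here do not give the annotation release or the treatment of shared reads. Replicate numbers follow the order of the records and pair no mice. Pairs of libraries within a group differed by more than sampling noise (chi-square over its degrees of freedom was 8.56 to 154). Reads carry no molecular identifiers, so the depth of 14456524 to 25778125 counts sets counting error only.

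Genes were kept by filterByExpr (edgeR 4.0.16, R 4.3.3), scaled by TMM factors, and fitted in 1 quasi-likelihood model with a mean per group over all 16 libraries (12 residual degrees of freedom, common biological coefficient of variation 0.242). Benjamini-Hochberg adjustment ran over all 14998 genes tested, and a call is an adjusted p under 0.05. PFOA was compared with vehicle on each diet, the diets were compared under vehicle and under PFOA, and the interaction was the PFOA response on HFD minus that on CD. The SE was taken from the log2 fold change and the F statistic, and intervals are 95%. CPM use the TMM-scaled total and are given as mean ± SD over 4 mice. Log2 CPM for correlations had a prior count of 2. Levels per kilobase, positions and exon overlaps used GENCODE M21 on GRCm38, and gene versions differed from the file for Pank1 and Slc25a17. The script was tested on simulated data.

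Named were all 10 members, every gene of the list of other coenzyme A genes, up to 3 called genes with the smallest p from each other list in each PFOA contrast, and the 3 genes with the highest r for Vnn1, Pank1, Nudt7 and Nudt19. The members and lists were chosen with earlier results of these data known. Alternatives were library-total and RLE scaling, DESeq2 1.42.0, no low-count filter, a fit of only the groups compared, each library left out in turn, the longest transcript as the gene length and, chosen after seeing the data, CD_vehicle 1 and 4 left out together.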

Additional observations from a re-analysis of the deposited data

Results flagged for a closer look

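For each of the 10 genes and the 8 further coenzyme A genes, the 4 libraries of each group were checked for 1 that stood far from the others, 72 groups in all. In 4 of the 72 groups there was such a library. Chance alone flags about 1 group in 20, so this number is close to what chance gives. In HFD_PFOA, Nudt7 was 257 CPM in replicate 1 and 156 to 171 CPM in the other mice. In CD_PFOA, Nudt19 was 52.4 CPM in replicate 1 and 38.3 to 40.7 CPM in the others. In CD_vehicle, Vnn3 was 68.4 CPM in replicate 1 and 90.9 to 95.5 CPM in the others. In HFD_vehicle, Nudt8 was 1.40 CPM in replicate 3, the library with the lowest total, and 0.463 to 0.561 CPM in the others.

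HFD_PFOA 1 also had the highest summed hepatocyte markers of its group, 56631 CPM, and the highest summed neutrophil markers of all libraries, 14.6 CPM. Their part in its Nudt7 level was not tested. The response to PFOA differed between the diets in the edgeR interaction test for Nudt7, by 1.48 on the log2 scale, and for Csad, by −1.66.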

How the results depend on the processing

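No paired analysis was possible because the replicate numbers follow the order of the records and pair no mice. The 11 calls among the 10 genes kept their direction in all 241 alternative settings, and all but 8 of these kept the call. The 8 lost calls were all Pank1 for diet under vehicle: −0.12 with library totals, −0.33 without the low-count filter (edgeR adjusted p = 0.0513), −0.32 with only the groups compared (edgeR adjusted p = 0.147) and −0.35 to −0.23 in the 5 lost fits with 1 library left out. The count of called members for diet under vehicle was 1 with only the groups compared, 1 to 3 with 1 library left out, and 4 with CD_vehicle 1 and 4 both left out, an alternative chosen after seeing the data. There Vnn1 (0.62, edgeR adjusted p = 0.00663) and Nudt19 (−0.40, edgeR adjusted p = 0.0467) passed too, and the interaction had 2 called members, Nudt7 and Pank1 (0.48, edgeR adjusted p = 0.0342). Of 39 uncalled results in 849 settings, 13 passed and 81 changed sign, with 0 sign changes past the threshold. Of 47 calls for the other named genes, 983 of 1033 settings kept the call and 0 changed sign. The interaction was not run with only the groups compared. Except where a value or the setting's own construction shows it, the cause was not tested.

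Signs of uncalled log2 differences changed as follows. With library totals they were Pank4 0.032 and Nudt19 0.012 (PFOA in CD), Pank2 −0.030 (PFOA in HFD), Pank2 0.16, Pank3 0.16, Pank4 0.20, Ppcs 0.041, Ppcdc 0.053 and Nudt19 0.00198 (HFD in vehicle), Pank4 0.021, Ppcs 0.075 and Coasy 0.024 (HFD in PFOA), and Ppcdc −0.12 and Nudt19 −0.098 (interaction). The Ppcdc interaction was −0.00407 with RLE factors, −0.00527 with DESeq2 and −0.00364 without the filter. With only the groups compared, Pank2 was −5.91e-06 (PFOA in HFD) and Pank4 0.011 (HFD in vehicle). With CD_vehicle 1 and 4 left out they were Pank4 0.00151 and Ppcdc −0.047 (PFOA in CD), Pank2 0.068, Pank4 0.035 and Ppcs 0.057 (HFD in vehicle), and Ppcs −0.063 (interaction). With 1 library left out, PFOA in CD ran from −0.080 to 0.14 (Pank2), −0.18 to 0.10 (Pank4), −0.048 to 0.096 (Ppcdc) and −0.20 to 0.00683 (Nudt19). PFOA in HFD ran from −0.099 to 0.056 (Pank2), −0.32 to 0.020 (Pank4), −0.048 to 0.18 (Ppcdc) and −0.14 to 0.00324 (Nudt19). HFD in vehicle ran from −0.18 to 0.039 (Pank2), −0.097 to 0.043 (Pank4) and −0.042 to 0.068 (Coasy). HFD in PFOA ran from −0.059 to 0.088 (Vnn1), −0.041 to 0.043 (Pank1), −0.29 to 0.064 (Pank4), −0.078 to 0.073 (Ppcs) and −0.15 to 0.12 (Nudt7). The interaction ran from −0.16 to 0.084 (Pank2), −0.28 to 0.077 (Pank4), −0.087 to 0.14 (Ppcdc) and −0.059 to 0.15 (Nudt19).

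With the longest transcript as length, Pank1 was 55.7% (HFD_vehicle) and 69.8% (HFD_PFOA) of the Pank total, Nudt7 was 73.0% (CD_PFOA) and 62.6% (HFD_vehicle) of both hydrolases, and the hydrolase to Pank ratio was 1.86, 0.941, 1.002 and 0.956 in CD_vehicle, CD_PFOA, HFD_vehicle and HFD_PFOA. In that order Pank3 was 22.5%, 19.8%, 25.2% and 18.1% of the Pank total and Ppcs over Ppcdc was 2.17, 3.56, 2.16 and 3.95. The Pank total was 73.9 (CD_PFOA), 46.5 (HFD_vehicle) and 71.8 (HFD_PFOA) CPM per kb. Library totals shifted the median of all genes from −0.03 to 0.19 for diet under vehicle and from 0.02 to −0.10 for the interaction, and the share of calls that were higher from 48.2% to 61.1% (PFOA in CD), 52.1% to 45.2% (PFOA in HFD), 49.9% to 87.7% (HFD in vehicle), 77.8% to 91.7% (HFD in PFOA) and 32.3% to 13.6% (interaction). Among all genes, calls for diet under vehicle numbered 1561, against 896 with only the groups compared, 881 to 2272 with 1 library left out and 2363 without CD_vehicle 1 and 4. Interaction calls numbered 31, against 194 with DESeq2, 290 without the filter, 13 to 352 with 1 library left out (352 without CD_vehicle 4) and 652 without CD_vehicle 1 and 4. Calls for diet under PFOA numbered 9, against 159 with DESeq2, 129 with only the groups compared, 1 to 56 with 1 library left out, 208 without CD_vehicle 1 and 4, and 25 times as many without the filter.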
